A study of Mus musculus with 6 samples.

Results

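The small structural RNAs made by RNA polymerase III were examined in mouse kidney: Rn7s1 and Rn7s2, which encode 7SL RNA, Rn7sk, which encodes 7SK RNA, Rmrp, the RNA of RNase MRP, and Rpph1, the RNA of RNase P. They were looked up by gene symbol among the 57180 listed genes, and 4 of the 5 were found. The 4 were held by 5 gene IDs, because Rmrp stood under 2, a ribozyme entry (ENSMUSG00000088088, 271 bases) and a lincRNA entry (ENSMUSG00000115420, 281 bases). Rn7s1 (ENSMUSG00000118841) and Rn7s2 (ENSMUSG00000118866) were named through their transcript IDs, and Rpph1 is ENSMUSG00000092837. Rn7sk was not found under its annotated gene or transcript ID and is not analysed here under that name. An entry without a symbol, ENSMUSG00002076161, has 331 bases, the length of the annotated Rn7sk transcript. Of the 43 listed genes of that length, 14 had a count in a library, and the highest count of another one was 17.61. The sources used here do not pair this entry with a name, so its identity is not settled and its values are given under its ID.

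The kidneys came from 6 male C57BL/6J wild-type mice, obtained at 7 weeks of age. The vehicle group (3 mice) received deionized water, a dose of 0 mg/kg, and the nanoplastic group (3 mice) received cationic polystyrene nanoparticles by mouth at 200 mg/kg every day for 6 weeks. Each kidney gave 1 library from total RNA, so a p-value here measures spread between mice.

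RNA polymerase III makes short, untranslated RNAs with general roles in cells. 7SL RNA is the scaffold of the signal recognition particle (SRP), which brings ribosomes that make secreted and membrane proteins to the endoplasmic reticulum. 7SK RNA holds the elongation factor P-TEFb inactive with HEXIM proteins, RNase P trims the leader from precursor tRNAs, and RNase MRP cuts precursor ribosomal RNA. Rn7sk, Rmrp and Rpph1 are driven by elements upstream of the start, and 7SL genes also use internal ones. In the kidney, as in other tissues, they are counted among the housekeeping RNAs.

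The division of reads between the 2 7SL genes depends on their sequences. In GENCODE vM21 (GRCm38, a build other than that of the deposited tables) both transcripts have 300 bases, and they differed at 0 positions. Other listed transcripts hold parts of them. Rn7s6 shared 124 of the 251 stretches of 50 bases, and held 144.64 to 250.44 counts in a library. Gm26461 shared 55 and held 23.02 to 46.05 counts. Rn7s1 had at least 1126838 counts and Rn7s2 at least 1274008, so little of the signal was assigned to these relatives.

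The longer Rmrp entry is shown because it contains the shorter one whole. It lies at chr4:43492783-43493063 on the minus strand (GRCm38). Capitals mark the 5 bases before and the 5 bases after the 271-base ribozyme entry.
Rmrp lincRNA entry: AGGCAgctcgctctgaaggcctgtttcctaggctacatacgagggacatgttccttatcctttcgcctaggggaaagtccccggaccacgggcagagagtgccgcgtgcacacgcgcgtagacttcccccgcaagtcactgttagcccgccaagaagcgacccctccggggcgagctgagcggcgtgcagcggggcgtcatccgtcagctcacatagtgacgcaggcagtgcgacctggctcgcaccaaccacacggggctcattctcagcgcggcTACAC
Only those 10 bases distinguish the entries, so the division of reads between them is uncertain, and their sum is the firmer value.

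Rpph1 lies at chr14:50807449-50807767 on the minus strand (GRCm38) and has 319 bases, of which the first 300 are printed. Capitals mark bases in stretches of 50 that a transcript of the protein-coding gene Ccnb1ip1 also holds.
Rpph1, first 300 bases: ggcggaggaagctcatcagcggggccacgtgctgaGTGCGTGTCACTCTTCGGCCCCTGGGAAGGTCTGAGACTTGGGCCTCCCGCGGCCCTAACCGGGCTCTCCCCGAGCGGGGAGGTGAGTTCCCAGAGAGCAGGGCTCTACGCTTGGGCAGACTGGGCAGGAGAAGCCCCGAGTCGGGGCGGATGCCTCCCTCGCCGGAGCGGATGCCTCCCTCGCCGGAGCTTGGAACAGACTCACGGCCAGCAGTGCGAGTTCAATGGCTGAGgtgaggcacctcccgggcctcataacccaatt
In the whole transcript 233 bases were shared in this way. Ccnb1ip1 was assigned 0 to 1 count in every library, and Rpph1 counts were whole in 6 of 6 libraries. The stretches were compared in the direction of each transcript, so a strand setting would not separate Rpph1 from Ccnb1ip1. Apart from this overlap, the labels name no strand setting for the library kit. Whether reads of other genes that overlap on opposite strands were kept apart is therefore not known.

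Rpph1 and Rmrp each have a protein-coding gene that starts close by in the opposite direction. The start regions of these neighbours are shown because both hold one copy of the octamer ATGCAAAT, an element of many RNA polymerase III promoters of this type, on either strand (in capitals). The windows are from RefSeq promoters of the neighbours (GRCm38.p6, plus strand, 250 bases before to 50 after the start).
Parp2, chr14:50807666-50807965: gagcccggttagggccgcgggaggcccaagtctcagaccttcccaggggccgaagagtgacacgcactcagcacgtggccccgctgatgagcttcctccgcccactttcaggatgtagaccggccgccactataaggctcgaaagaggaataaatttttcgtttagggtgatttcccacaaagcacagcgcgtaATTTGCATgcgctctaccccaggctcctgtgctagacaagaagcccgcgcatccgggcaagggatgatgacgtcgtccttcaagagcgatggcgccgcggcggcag
Ccdc107, chr4:43493115-43493414: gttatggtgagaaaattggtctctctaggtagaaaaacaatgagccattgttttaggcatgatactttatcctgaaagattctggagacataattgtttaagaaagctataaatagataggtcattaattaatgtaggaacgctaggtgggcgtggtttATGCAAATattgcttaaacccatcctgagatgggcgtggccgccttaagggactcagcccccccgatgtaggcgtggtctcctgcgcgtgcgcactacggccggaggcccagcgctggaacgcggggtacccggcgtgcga
The Parp2 start lies 149 bases from the Rpph1 start, and its window holds the first 102 bases of Rpph1. The octamer lies 93 bases upstream of Rpph1. For Ccdc107 and the Rmrp lincRNA entry the starts are 302 bases apart, and the octamer lies 211 bases upstream of that entry. The ribozyme entry starts 5 bases further from both. The octamer occurs in 570 of 32851 promoter windows (1.735%), whereas TATAA, found once in each of the 2 windows, occurs in 24.87%. These matches describe letters in the windows and do not show that a factor binds.

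The libraries held 19408534 to 26292760 expected counts, so counting error was small beside the spread between mice. It came to an SD of 0.0644% for 7SL in the library with the fewest counts and 1.60% for the Rmrp lincRNA entry. Mean fragment lengths were 197 to 212 bases. The adipocyte markers summed to 31.0 to 67.0 CPM (counts scaled to library size) in the vehicle group and 30.5 to 198 CPM in the nanoplastic group. In vehicle 1 and 2 and nanoplastic 2 and 3 nearly all of this was Fabp4, at 589 to 879 counts. Adipoq, Plin1, Cfd and Lep had 0 to 8 counts in those libraries. Adipoq, a defining adipocyte gene, had 0, 1 and 130 counts in vehicle 1 to 3 and 444, 0 and 2 in nanoplastic 1 to 3. Proximal tubule markers, which define most of the kidney cortex, summed to 39445 to 40694 CPM in vehicle and 35388 to 39970 CPM in nanoplastic, so the tissue label was met in all libraries. The erythrocyte, fibroblast and macrophage markers had negative fold changes in 5 of 5, 5 of 5 and 6 of 6 genes. Of these 0 passed the adjusted threshold, as did 0 of all 18092 genes tested. The edgeR unadjusted p was under 0.05 in 5, 3 and 2 of them, against 7.19% of all genes. Groups did not overlap in 2, 3 and 2, against 12.9% of all genes. Col1a1 and Col3a1, at log2 fold changes of -0.69 and -0.72, had the lowest p of all genes tested (edgeR adjusted p = 0.176 for each). The urothelium markers had positive fold changes in 3 of 3 tested genes, 0 of them called, and summed to 1.71 to 5.32 CPM in vehicle and 18.2, 2.52 and 2.83 CPM in nanoplastic 1 to 3. Aqp2, the water channel of the collecting duct, had 43.3 to 61.7 CPM in vehicle and 149, 61.1 and 46.1 CPM in nanoplastic 1 to 3. Scnn1g, Atp6v1g3 and Slc4a1, from the same list of thick limb, distal and collecting duct markers, were not raised in nanoplastic 1. They had 34.5, 20.0 and 22.6 CPM there, and 35.8 to 38.1, 29.5 to 32.0 and 20.2 to 23.9 CPM in vehicle. The whole list summed to 5550 CPM in nanoplastic 1 and 5351 to 6129 CPM in vehicle. Nanoplastic 1 thus stood apart in adipocyte and urothelium markers and in Aqp2, but not in this list as a whole. Umod and Slc12a1 of the thick limb, at 3208 and 1383 CPM there, held most of that sum, so it says little of the collecting duct. Umod was lower in nanoplastic (log2 fold change -0.33, edgeR adjusted p = 0.542). Its groups did not overlap, as in 1 of the 7 genes of the list and 12.9% of all genes tested. The summed level of the erythrocyte markers was 582 to 836 CPM in vehicle and 491 to 653 CPM in nanoplastic. The part of these cell types in the results below was not tested. In bulk tissue, fewer cells of a type and less RNA per cell cannot be told apart.

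7SL RNA was the largest single product in every library and its share did not differ between the groups beyond the spread between mice. Rn7s1 and Rn7s2 together took 12.4%, 11.5% and 10.6% of the expected counts in vehicle 1 to 3 and 11.0%, 11.0% and 12.4% in nanoplastic 1 to 3. The highest vehicle and the highest nanoplastic libraries stood level, and the groups overlapped throughout. The means were 11.5% ± 0.889 (SD, n = 3) in vehicle and 11.5% ± 0.822 in nanoplastic (exact two-sided permutation test, p = 1). With 3 mice against 3 the smallest p this test can give is 0.1.

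Across all genes edgeR's quasi-likelihood test with Benjamini-Hochberg adjustment called 0 of 18092 genes at an adjusted p under 0.05 (0%), and 1301 (7.19%) had an unadjusted p under 0.05. limma-voom also called 0. Without nanoplastic 1 edgeR called 5 genes and without nanoplastic 3 it called 2. DESeq2 called 58 of the 12476 genes it gave an adjusted p (0.465%). Of the named RNAs 0 were called by any of the 3 tools. The groups did not overlap in 2327 of the 18092 genes (12.9%) and in 0 of the named RNAs and ENSMUSG00002076161. The log2 fold change of 7SL, nanoplastic over vehicle, was -0.05 (SE 0.10, 95% interval -0.28 to 0.18, edgeR adjusted p = 0.940). The interval covers folds from 0.825 to 1.13. The direction turned without vehicle 1 (0.014) and without nanoplastic 1 (0.0037).

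**Figure D1:**
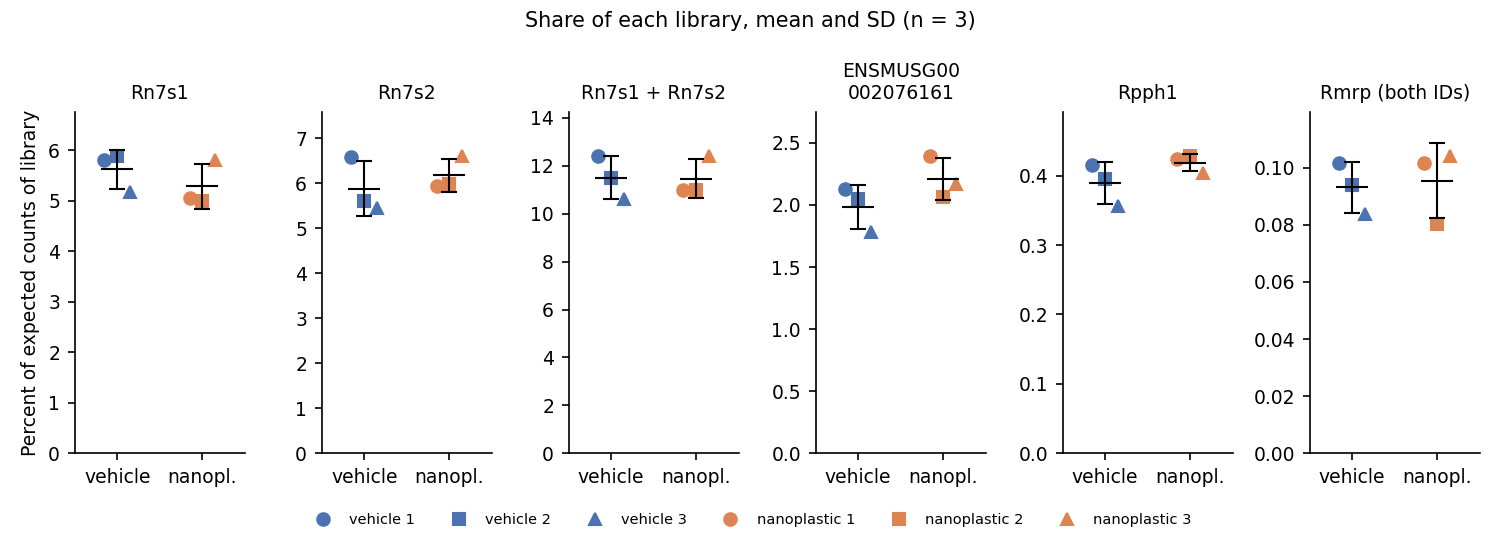
Each panel plots the percent of a library's expected counts taken by an RNA (y axis, starting at 0) in vehicle and nanoplastic mice; points are libraries, the horizontal line is the mean and the bar the SD (n = 3). In all 6 panels the groups overlap, as for 7SL, at 10.6% to 12.4% in vehicle and 11.0% to 12.4% in nanoplastic.

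The 2 7SL genes, read one by one, did not pass the test either. Rn7s1 took 5.82%, 5.89% and 5.18% of the counts in vehicle 1 to 3 and 5.05%, 5.00% and 5.81% in nanoplastic 1 to 3. Nanoplastic 1 and 2 were below every vehicle library, and nanoplastic 3 was within their range. Its log2 fold change was -0.13 (SE 0.10, edgeR adjusted p = 0.806). It was -0.23 without nanoplastic 3 (edgeR unadjusted p = 0.0329, adjusted p = 0.506), -0.20 without vehicle 3 and -0.08 without nanoplastic 1. Rn7s2 took 6.59%, 5.61% and 5.44% in vehicle 1 to 3 and 5.93%, 5.99% and 6.60% in nanoplastic 1 to 3. Vehicle 1 and nanoplastic 3 were the high libraries, and the log2 fold change was 0.03 (SE 0.10, edgeR adjusted p = 0.970). It was -0.04 without vehicle 3 and -0.04 without nanoplastic 3.

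Within 7SL the fraction assigned to Rn7s1 was lower in all 3 nanoplastic libraries. Rn7s1 made up 46.9%, 51.2% and 48.8% of the 7SL counts in vehicle 1 to 3, and 46.0%, 45.5% and 46.8% in nanoplastic 1 to 3. The groups did not overlap, although nanoplastic 3 and vehicle 1 lay close together. The difference in the log2 ratio of Rn7s1 to Rn7s2 was -0.17, with an exact two-sided permutation p = 0.1, the smallest possible, and 0.6 after Benjamini-Hochberg adjustment over the 6 ratios compared. The sequences are identical in GENCODE vM21, and those of the annotation used for counting were not compared. These values describe how RSEM divided reads between the 2 entries, and are uncertain as levels of either gene. Why the division was uneven was not tested.

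Rpph1, the RNA of RNase P, took a larger mean share in nanoplastic kidneys, but the difference did not pass the test. It took 0.415%, 0.396% and 0.357% of the counts in vehicle 1 to 3 and 0.424%, 0.428% and 0.404% in nanoplastic 1 to 3. Vehicle 3 was the lowest library, and vehicle 1 lay within the nanoplastic range. The means were 0.389% ± 0.0299 and 0.419% ± 0.0129 (SD, n = 3, exact permutation p = 0.2, adjusted over the 7 shares compared 0.467). Its log2 fold change was 0.06 (SE 0.08, 95% interval -0.12 to 0.24, edgeR adjusted p = 0.888). Without vehicle 3 the log2 fold change was -0.01, and without vehicle 3 and nanoplastic 1, the 2 libraries with adipocyte transcripts, it was 0.0042. That pair was chosen after seeing the data. It holds the lowest library, so the value does not bear on adipocyte content.

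Rmrp, the RNA of RNase MRP, had close to equal means in the groups. Both entries together took 0.102%, 0.0938% and 0.0838% in vehicle 1 to 3 and 0.102%, 0.0804% and 0.104% in nanoplastic 1 to 3. Nanoplastic 2 was the lowest library of all and nanoplastic 3 the highest. The means were 0.0931% ± 0.0090 and 0.0954% ± 0.0131 (SD, n = 3, exact permutation p = 0.9), and the log2 fold change was -0.01 (SE 0.11, 95% interval -0.25 to 0.23, edgeR adjusted p = 0.993). The ribozyme entry had a log2 fold change of 0.02 (SE 0.10, edgeR adjusted p = 0.984) and the lincRNA entry -0.10 (SE 0.18, edgeR adjusted p = 0.929). The ribozyme entry turned to -0.05 without vehicle 3, -0.04 without nanoplastic 1 and -0.03 without nanoplastic 3. The lincRNA entry turned to 0.013 without vehicle 2 and 0.05 without nanoplastic 2. It was -0.25 without vehicle 3, -0.02 without nanoplastic 1, -0.04 without vehicle 1 and -0.34 without nanoplastic 3 (edgeR unadjusted p = 0.0407, adjusted p = 0.521). The lincRNA entry received 22.7%, 26.2% and 20.7% of the Rmrp counts in vehicle 1 to 3 and 18.98%, 20.5% and 25.9% in nanoplastic 1 to 3. The direction of the fold change of both entries together turned with the scaling: by library size alone it was 0.03. It also turned without vehicle 1 (0.06), vehicle 2 (0.0040) or nanoplastic 2 (0.10).

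ENSMUSG00002076161, the entry of the length of 7SK RNA, took 2.13%, 2.04% and 1.78% of the counts in vehicle 1 to 3 and 2.39%, 2.06% and 2.17% in nanoplastic 1 to 3. Vehicle 3 was the lowest library and nanoplastic 1 the highest, and vehicle 1 lay within the nanoplastic range. The means were 1.98% ± 0.180 and 2.21% ± 0.168 (SD, n = 3, exact permutation p = 0.2). The log2 fold change was 0.11 (SE 0.09, 95% interval -0.10 to 0.32, edgeR adjusted p = 0.825). Nanoplastic 1 was also the library with the most urothelium and Aqp2 RNA. Without it and vehicle 3, the 2 libraries with adipocyte transcripts, the log2 fold change was -0.01. That pair was chosen after seeing the data. It holds the lowest vehicle and the highest nanoplastic library, so leaving it out lowers the difference whatever its cell content. As a share of summed TPM (a length-scaled level), the groups did not overlap, at 7.91%, 8.06% and 7.49% in vehicle and 9.52%, 8.32% and 8.14% in nanoplastic (exact permutation p = 0.1, the smallest possible). This comparison was added after seeing the data and its p is not adjusted. On the same scale 7SL had p = 0.4, Rn7s1 0.2, Rn7s2 0.3, Rpph1 0.3, Rmrp 1 and all named RNAs together 0.5 (exact permutation tests).

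**Figure D2:**
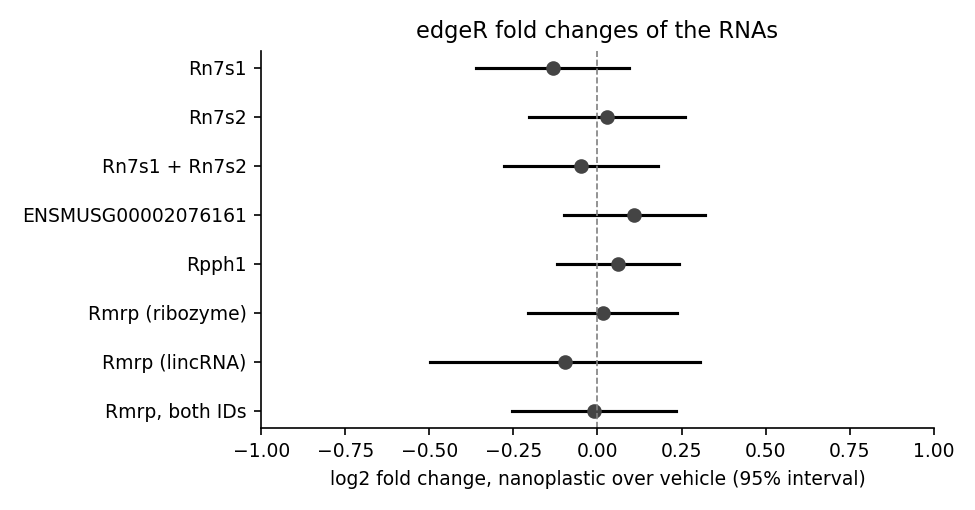
Log2 fold change, nanoplastic over vehicle (x axis), for each RNA from edgeR; points are estimates and bars are 95% intervals (3 mice per group). Every interval includes 0, and the widest is that of the Rmrp lincRNA entry, -0.50 to 0.31.

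Per length, the order of the RNAs was the same in all 6 libraries, 7SL first, then ENSMUSG00002076161, Rpph1 and Rmrp, with no overlap between neighbours. On the TPM scale 7SL reached 555486 to 594303, ENSMUSG00002076161 74901 to 95193, Rpph1 16404 to 18812 and both Rmrp entries together 5307 to 6682. By count Rpph1 ranked 12 to 17 among all genes in a library and by TPM it ranked 5 in every library. The Rmrp ribozyme entry ranked 83 to 136 by count and 8 to 10 by TPM. RSEM divides by an effective length, which for the 300-base 7SL transcripts was 97.1 to 109 bases, so the TPM of RNAs this short depends strongly on the fragment lengths of a library.

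Ratios within a library leave out its total. Rpph1 had 3.35, 3.44 and 3.36 counts per 100 7SL counts in vehicle 1 to 3, and 3.86, 3.90 and 3.26 in nanoplastic 1 to 3. Nanoplastic 1 and 2 were above the vehicle libraries and nanoplastic 3 below them (difference in log2 ratio 0.11, exact permutation p = 0.4). Rmrp had 0.821, 0.816 and 0.789 counts per 100 7SL counts in vehicle 1 to 3, and 0.927, 0.732 and 0.839 in nanoplastic 1 to 3 (difference in log2 ratio 0.04, exact permutation p = 0.7). Here the nanoplastic libraries lay on both sides of the vehicle range. Rmrp as a percentage of Rpph1 was 24.5%, 23.7% and 23.5% in vehicle and 24.0%, 18.8% and 25.7% in nanoplastic (exact permutation p = 0.9). ENSMUSG00002076161 came to 17.1%, 17.8% and 16.8% of 7SL in vehicle and 21.8%, 18.8% and 17.5% in nanoplastic (exact permutation p = 0.2). The coefficient of variation of Rpph1 to 7SL was 1.54% in vehicle and 9.80% in nanoplastic, and of Rmrp to 7SL 2.12% and 11.7%. Whether the spread itself differed between the groups was not tested.

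**Figure D3:**
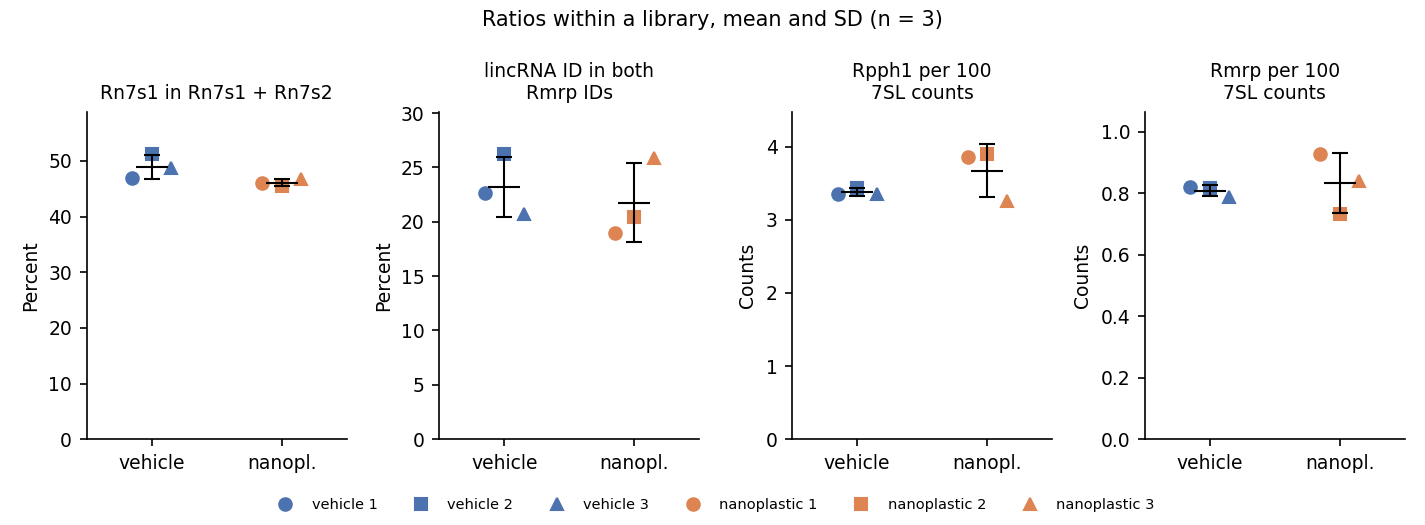
Ratios within each library (y axes in percent, or counts per 100 7SL counts, starting at 0) in vehicle and nanoplastic mice; points are libraries, lines are means and bars SD (n = 3). Rn7s1 as a percentage of both 7SL genes lies at 46.9% to 51.2% in vehicle and 45.5% to 46.8% in nanoplastic, while the other ratios overlap. The 7SL sequences are identical in GENCODE vM21, and those of the annotation used for counting were not compared. This percentage describes how RSEM divided reads and is uncertain as a level of either gene.

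The protein partners of 7SL were not called. Of 10 SRP proteins and receptor subunits tested, 4 had positive and 6 negative log2 fold changes, with a median of -0.07 against 0.0067 over all genes tested. Srp54c, a copy of the GTPase subunit that binds signal sequences, had 53.9 ± 1.85 CPM in vehicle and 48.5 ± 2.32 in nanoplastic (SD, n = 3). The groups did not overlap, as in 1 of the 10 genes tested here and 12.9% of all genes tested. The genes named have the lowest p of their list, which favours separated groups. Srp54c had a log2 fold change of -0.15 (SE 0.07, edgeR adjusted p = 0.689). Its near-identical relatives make the count of each Srp54 copy uncertain, and the copies did not move one way: Srp54a had a log2 fold change of -0.11 and Srp54b, at 18.1 ± 4.42 and 20.3 ± 1.72 CPM, 0.17 (edgeR adjusted p = 0.827). Srp72 and Srp68, which form a heterodimer on 7SL, had -0.11 and -0.14.

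The proteins of the 7SK particle and P-TEFb were likewise not called. Of 7 tested, 6 had positive log2 fold changes, with a median of 0.03. Mepce, the capping enzyme of 7SK, had 26.3, 25.6 and 26.2 CPM in vehicle 1 to 3 and 27.2, 29.3 and 28.1 in nanoplastic 1 to 3. All nanoplastic libraries were higher. Groups did not overlap in 1 of the 7 genes, against 12.9% of all genes tested. Mepce had a log2 fold change of 0.11 (edgeR adjusted p = 0.754). Hexim2, which inhibits P-TEFb, had 0.27, Larp7, which stabilises 7SK, 0.06, and Ccnt2, a cyclin of P-TEFb, 0.03.

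Of 11 proteins of RNase P and RNase MRP, 10 were tested and 0 called. There were 2 positive and 8 negative log2 fold changes, with a median of -0.06. Pop1, the large scaffold protein of both enzymes, had 18.98, 18.0 and 17.7 CPM in vehicle 1 to 3 and 14.4, 17.3 and 16.0 in nanoplastic 1 to 3. Every nanoplastic library was below every vehicle library. Groups did not overlap in 1 of the 10 genes tested, against 12.9% of all genes tested. Pop1 had a log2 fold change of -0.20 (SE 0.09, edgeR adjusted p = 0.691). Pop5, Pop4 and Rpp25l, further subunits, had -0.10, -0.10 and -0.09.

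RNA polymerase III itself was represented by 18 subunits, of which 8 had positive and 10 negative log2 fold changes (median -0.0062, 0 called). Polr3gl, the form of subunit G typical of differentiated cells, had 4.72, 3.43 and 5.10 CPM in vehicle 1 to 3 and 6.01, 7.31 and 7.28 in nanoplastic 1 to 3. All nanoplastic libraries were higher. Of the 18 subunits, 2 were higher and 1 lower without overlap, against 12.9% of all genes tested in either direction. Polr3gl had a log2 fold change of 0.63 (SE 0.17, edgeR adjusted p = 0.525). Polr3e, another subunit, had 60.7, 67.4 and 58.7 CPM in vehicle and 57.3, 98.0 and 100.2 in nanoplastic, so nanoplastic 1 lay below the vehicle libraries and the other 2 above (log2 fold change 0.45, edgeR adjusted p = 0.632). Polr2h, shared by all 3 nuclear polymerases, had -0.19, and Polr3f 0.10.

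Of 19 initiation factors and Maf1, the repressor of RNA polymerase III, 12 had positive and 7 negative log2 fold changes (median 0.03, 0 called). Snapc4, the large subunit of the complex that recognises the upstream promoter element, had 13.8, 14.4 and 14.3 CPM in vehicle 1 to 3 and 16.9, 16.5 and 15.9 in nanoplastic 1 to 3. The groups did not overlap, as in 3 of the 19 genes and 12.9% of all genes tested. Snapc4 had a log2 fold change of 0.21 (SE 0.08, edgeR adjusted p = 0.621). Snapc2 had 0.17 and Snapc5 -0.21, in the opposite direction within the same complex. Maf1 had 71.97 ± 3.29 CPM in vehicle and 78.0 ± 3.97 in nanoplastic (SD, n = 3, log2 fold change 0.12, edgeR adjusted p = 0.744). Ssb, the La protein that binds the 3′ end of new RNA polymerase III transcripts, had -0.02, and Trove2, the Ro protein, 0.06.

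**Figure D4:**
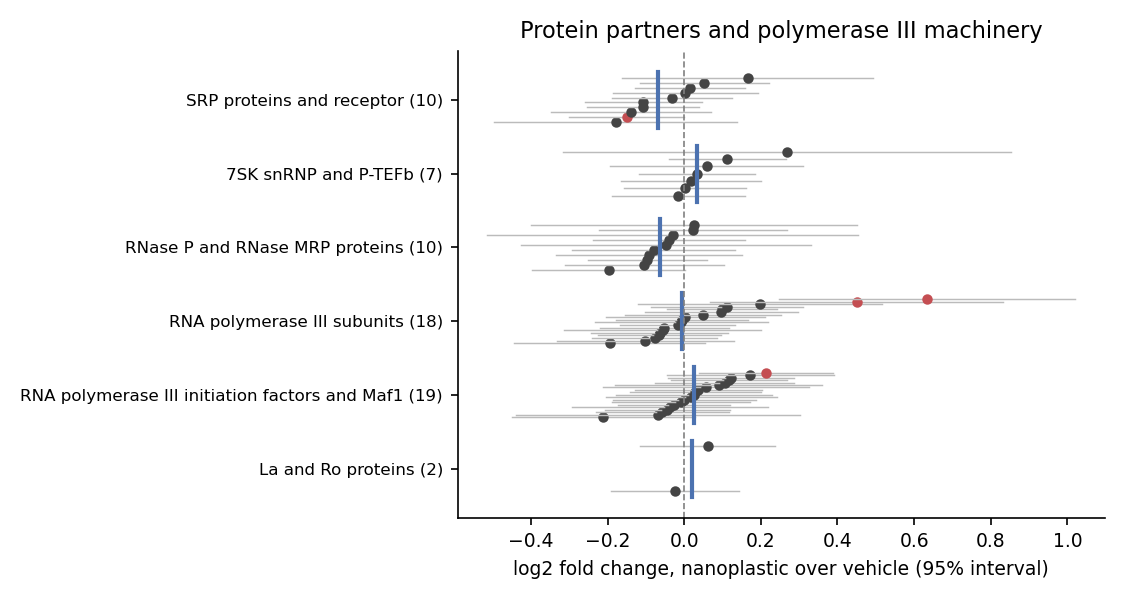
Log2 fold change, nanoplastic over vehicle (x axis), of each tested gene in 6 groups of proteins that bind the RNAs or transcribe them; points are genes, grey lines 95% intervals, blue bars the median of a group, and red points genes with an unadjusted p under 0.05. The medians lie between -0.07 and 0.03, and 0 genes pass the adjusted threshold.

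Other small RNAs had far lower CPM. CPM is not scaled by length, and the mean fragments of the libraries had 197 to 212 bases. How well RNAs shorter than such fragments were captured was not tested, so low CPM need not mean few molecules. Of 8 further RNA polymerase III transcripts listed for the comparison, 6 were found and 3 tested. Rny3, a Y RNA bound by Ro, had 3.68 ± 1.03 CPM in vehicle and 3.88 ± 0.844 in nanoplastic (SD, n = 3), and Rny1 0.566 ± 0.0817 and 0.677 ± 0.0936. Bc1, a neuronal RNA, had 1.10 ± 0.265 and 1.05 ± 0.559 CPM. Rprl1, Rprl2 and Rprl3, copies related to the RNase P RNA, were listed at 0 in every library.

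Of the small nuclear and related RNAs made by RNA polymerase II, 4 of 16 were tested and 0 called. Rnu3a, which works in ribosomal RNA processing, had 16.3, 10.9 and 7.61 CPM in vehicle 1 to 3 and 12.5, 11.2 and 20.1 in nanoplastic 1 to 3. The log2 fold changes were 0.32 for Rnu3a, 0.27 for Rnu2-10, 0.15 for Rnu1a1 and 0.15 for Rnu12, and the groups overlapped in each.

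The protein-coding neighbours, which start beside Rmrp and Rpph1, were at levels unlike those of the RNAs. Ccdc107 had 101 ± 2.19 CPM in vehicle and 100.4 ± 7.78 in nanoplastic (SD, n = 3, log2 fold change -0.0090, edgeR adjusted p = 0.988). Parp2, an enzyme of DNA repair, had 10.6 ± 0.167 and 11.1 ± 1.20 CPM (log2 fold change 0.07, edgeR adjusted p = 0.907).

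Over the 6 libraries, the named genes whose log2 CPM followed each RNA most closely are given as a description, among 8903 genes, since with 6 points that share their depth and scaling many genes reach a high correlation. For 7SL they were Ndufa2 (Pearson r 0.985), Rpl17, Tceanc2, Nudt8 and Pus1 (0.981). For Rpph1 they were Ash2l (0.987), Mul1, Myg1 and Atp6v1g1 (0.972). For Rmrp they were Dgkq (0.982), Rhbdf1, Ebna1bp2, Ugt1a6a and Ppp2cb (0.962). For ENSMUSG00002076161 they were Rpl3 (0.985), Srp14 (0.982), Gba2, Ifitm2 and Rpl23 (0.976).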

How the data were processed

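RNA from 6 kidneys was sequenced, 1 library per mouse, on an Illumina instrument, per the labels' protocols. Reads were handled with STAR 2.7.9a, RSEM 1.3.3, Trim Galore 0.6.6 and FastQC on the build GRCm39, per the submitters' processing notes. For the annotation, a release is not named. The authors deposited unnormalized expected counts per gene, per the file headers. TPM and FPKM, scaled by length, were also deposited by the authors, and FPKM was not used. RSEM divides reads that fit several transcripts, so the sums of Rn7s1 with Rn7s2 and of both Rmrp entries were also tested. Rmrp sums were within 0.05 of a whole number in 6 of 6 libraries and Rn7s2 counts in 0. The 7SL sums were so in 1 of 6, also with Rn7s6, Gm26461 and Gm24514 added, and ENSMUSG00002076161 in 1 of 6. Which further entries shared their reads was not tested.

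Genes were named by gene ID from a reference list of symbols (51884) or by transcript ID from GENCODE vM21 (246), and 5050 had no name. Rounded expected counts passed filterByExpr and TMM scaling, and the quasi-likelihood test of edgeR 4.0.16 (R 4.3.3) had group as its single term, with Benjamini-Hochberg adjustment over all genes at 0.05. Standard errors are the log2 fold change over the root of F, and intervals are 95%. CPM values of single genes are scaled by TMM, and the summed CPM of marker lists by the total expected counts alone. Shares and ratios were compared with exact permutation tests in SciPy 1.17.1, over 7 shares and 6 ratios. The fit was tested on simulated data. Alternatives used DESeq2 1.42.0, limma 3.58.1, other scalings, filters, pseudocounts and libraries. The text names all the RNAs, the 4 genes with the lowest p of each partner list, detected related small RNAs, both neighbours and the 5 most alike genes with at least 10 CPM. A sequence and a gene that this rule covers are not reported here. The genes and lists were chosen with earlier results of these data known.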

Additional observations from a re-analysis of the deposited data

How the results depend on the processing

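In 120 fits of the RNAs under alternatives, 0 had an adjusted p under 0.05, and the lowest was 0.506. The count of called genes, 0 in edgeR, was 58 with DESeq2, 207 with no filter on low counts (31335 genes tested), 27 without vehicle 3 and nanoplastic 1 (chosen after seeing the data), and 0 to 5 leaving out 1 library, and the cause was not tested. Leaving out 1 library gave log2 fold changes of -0.13 to 0.014 for 7SL, -0.23 to -0.079 for Rn7s1, -0.041 to 0.12 for Rn7s2, -0.012 to 0.12 for Rpph1, -0.097 to 0.095 for Rmrp, -0.049 to 0.11 for its ribozyme entry, -0.34 to 0.046 for its lincRNA entry and 0.024 to 0.17 for ENSMUSG00002076161. Differences in share, in percentage points, ran from -0.524 to 0.398 for 7SL, -0.604 to -0.200 for Rn7s1, 0.0747 to 0.648 for Rn7s2, 0.0133 to 0.0427 for Rpph1, -0.00239 to 0.00978 for Rmrp, 0.124 to 0.298 for ENSMUSG00002076161 and -0.489 to 0.447 for all named RNAs. Differences in log2 ratio ran from -0.23 to -0.10 for Rn7s1 to Rn7s2, 0.069 to 0.20 for Rpph1 to 7SL, -0.045 to 0.13 for Rmrp to 7SL, -0.17 to 0.056 for Rmrp to Rpph1, -0.29 to -0.0040 for the lincRNA to the ribozyme entry and 0.074 to 0.23 for ENSMUSG00002076161 to 7SL. Directions also turned for Rmrp by library size alone (0.035), with log2(TPM + 1) (0.00184) and with log2(TPM + 0.1) (0.00184). Without vehicle 3 and nanoplastic 1 they turned for the ribozyme entry (-0.10), ENSMUSG00002076161 (-0.011), the Rmrp share (-0.00558) and Rmrp to 7SL (-0.063). In deviations from the group means, same-numbered mice correlated at 0.0436, -0.023 and 0.103, and differently numbered mice at -0.122 to 0.0763. With 3 libraries per group these correlations cannot settle whether the numbers pair the mice. With a replicate block 0 genes were called and 7SL had -0.049. With 3 mice per group the median interval reached 0.282 log2 units to either side.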
